A study of Mus musculus with 127 samples.

Results

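Multipotent progenitors (MPP) from the bone marrow of young mice 1, 2 and 3, cultured with LPS and Pam3csk4 for 8 h, were compared with MPP of the same 3 mice cultured with the same ligands for 2 h. The labels for age, cell type, treatment and time chose the libraries, which are 6 of the 127 deposited: 3 at 8 h and 3 at 2 h, paired by mouse. LPS (lipopolysaccharide, 100 ng/ml) from bacterial walls is sensed by Tlr4, one of the Toll-like receptors, and Pam3csk4 (1 ug/ml) is a synthetic lipopeptide bound by Tlr2 with Tlr1. Messenger RNA was sequenced in bulk by SMART-seq2, which copies whole transcripts from few cells. MPP of these mice at 0 h were the baseline: the 0 h libraries of mouse 3 are labelled as untreated and those of mice 1 and 2 as LPS and Pam3csk4, and all were read as unexposed. Libraries at 0.5, 1, 4 and 12 h of the same mice completed the course. MPP of young mouse 4 and old mouse 4 in the same medium without ligand, MPP of old mouse 2 with ligand, and short-term (ST) and long-term (LT) haematopoietic stem cells of young mice 1, 2 and 3 with ligand were set beside them. The labels give no strain, genotype or sex, and say that cells were identified by surface markers without naming these. Values of the 3 mice are given in the order mouse 1, 2 and 3 throughout.

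Toll-like receptors signal through the adaptor Myd88 to NF-kB and to MAP kinases. In most responding cells immediate early genes come first and fade quickly, NF-kB feeds back through inhibitors that it switches on itself, and a later wave follows that includes chemokines, effector proteins and enlargement of the secretory pathway. Multipotent progenitors carry these receptors and are known to make cytokines when exposed to bacterial ligands.

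The 6 libraries were close in depth, with 3623808 to 5205952 expected counts each. The number of genes with a count was 10116, 11442 and 13356 at 8 h and 11151, 11680 and 13225 at 2 h. Of 5 sort markers of MPP (Kit, Ly6a, Cd34, Flt3 and Cd48), 0 were without counts at either time, and their summed level was 649, 1420 and 3630 CPM (counts scaled to library size) at 8 h and 828, 1220 and 1670 CPM at 2 h. Mouse 3 stood apart from mice 1 and 2 in transcripts of neutrophil granules (S100a8, S100a9, Ngp, Camp, Ltf and Lcn2). These made up 7.86%, 3.91% and 0.0201% of counts at 8 h and 5.52%, 2.45% and 0.0116% at 2 h. All 6 were detected at both times, and their summed share was higher at 8 h than at 2 h in all 3 mice. The summed level of 14 monocyte and macrophage markers was 12400, 5120 and 806 CPM at 8 h and 10100, 4480 and 253 CPM at 2 h. Since RNA was pooled from many cells, a smaller number of cells of 1 type and less RNA per cell cannot be told apart in any result that follows.

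Between 2 h and 8 h the response changed in composition, with a similar number of genes going up and down. Genes that fell included 9 of 29 immediate early genes, 6 of 15 heat shock chaperones, the cytokine signalling inhibitor Cish and the death gene Bcl2l11. Genes that rose included 14 of 24 chaperones of the endoplasmic reticulum (ER), 8 of 28 genes of cholesterol and fatty acid synthesis and 7 of 38 cytokines and chemokines. Of 24 NF-kB genes 15 were above 0 h at both times without passing the test between them. Of 12306 genes tested, 311 were higher at 8 h than at 2 h (2.53%) and 330 were lower (2.68%), in all 5.21%, by edgeR's quasi-likelihood test with mouse as a block and Benjamini-Hochberg adjusted p under 0.05. In 636 of these 641 genes all 3 mice moved the same way. The 8 h and 2 h values did not overlap in 239 of the genes that rose and 244 of those that fell, against 17.1% of all genes tested. The median change of all genes tested was -0.04 on the log2 scale. The shares of 2.53% and 2.68% are the background for each count of list members that rose or fell between 2 h and 8 h. Leaving out mouse 2 with all its times left 0 calls by edgeR, with 1228 of 12443 genes at an unadjusted p under 0.05. All 641 called genes kept their direction without mouse 2, and 599 of them were under that unadjusted threshold. The 641 genes were called from these same libraries, so their counts of directions, overlap and unadjusted p are no independent support. Without mouse 3 there were 137 genes higher and 134 lower, and the 6 compared libraries alone gave 0 calls, with 1452 of 10453 genes at an unadjusted p under 0.05. DESeq2 on all the libraries called 627 genes higher and 716 lower, including all 641.

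Each gene was also sorted by its level at 2 h and 8 h against 0 h. At 2 h 645 genes were higher than at 0 h (5.24%) and 211 lower (1.71%), 856 in all (6.96%). At 8 h 673 were higher than at 0 h (5.47%) and 359 lower (2.92%), 1032 in all (8.39%). Resolved genes passed as higher at 2 h than at 0 h and as lower at 8 h than at 2 h, and there were 118 (0.959%). Held genes passed as higher than 0 h at both times without passing between 8 h and 2 h, and there were 282 (2.29%). A further 20 genes (0.163%) were raised at 2 h and raised further at 8 h, and 126 (1.02%) were newly raised, being higher at 8 h than at both earlier times without passing at 2 h. Of the resolved genes, 21 were still higher at 8 h than at 0 h, 96 did not pass between those times, and 1, the poly(A)-binding protein gene Pabpc1, was lower at 8 h than at 0 h. Without mouse 2 the resolved, newly raised and further raised classes were empty and 61 genes were held, and without mouse 3 there were 33 resolved, 187 held and 64 newly raised genes. The classes use only the cultures with ligand, so they do not separate ligand from culture. Their comparisons share libraries and are not independent tests: high values at 2 h by chance favour both calls of a resolved gene. Early rises also occurred without ligand, in young mouse 4 and old mouse 4. Resolved Hspa8 had 10100 and 14900 CPM at 2 h and 3050 and 4200 CPM at 0 h there. Held Sqstm1 had 1330 and 1720 CPM at 2 h and 263 and 181 CPM at 0 h. Resolved Map3k5 did not rise there, with 10.0 and 10.8 CPM at 2 h and 22.8 and 37.7 CPM at 0 h.

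**Figure D1:**
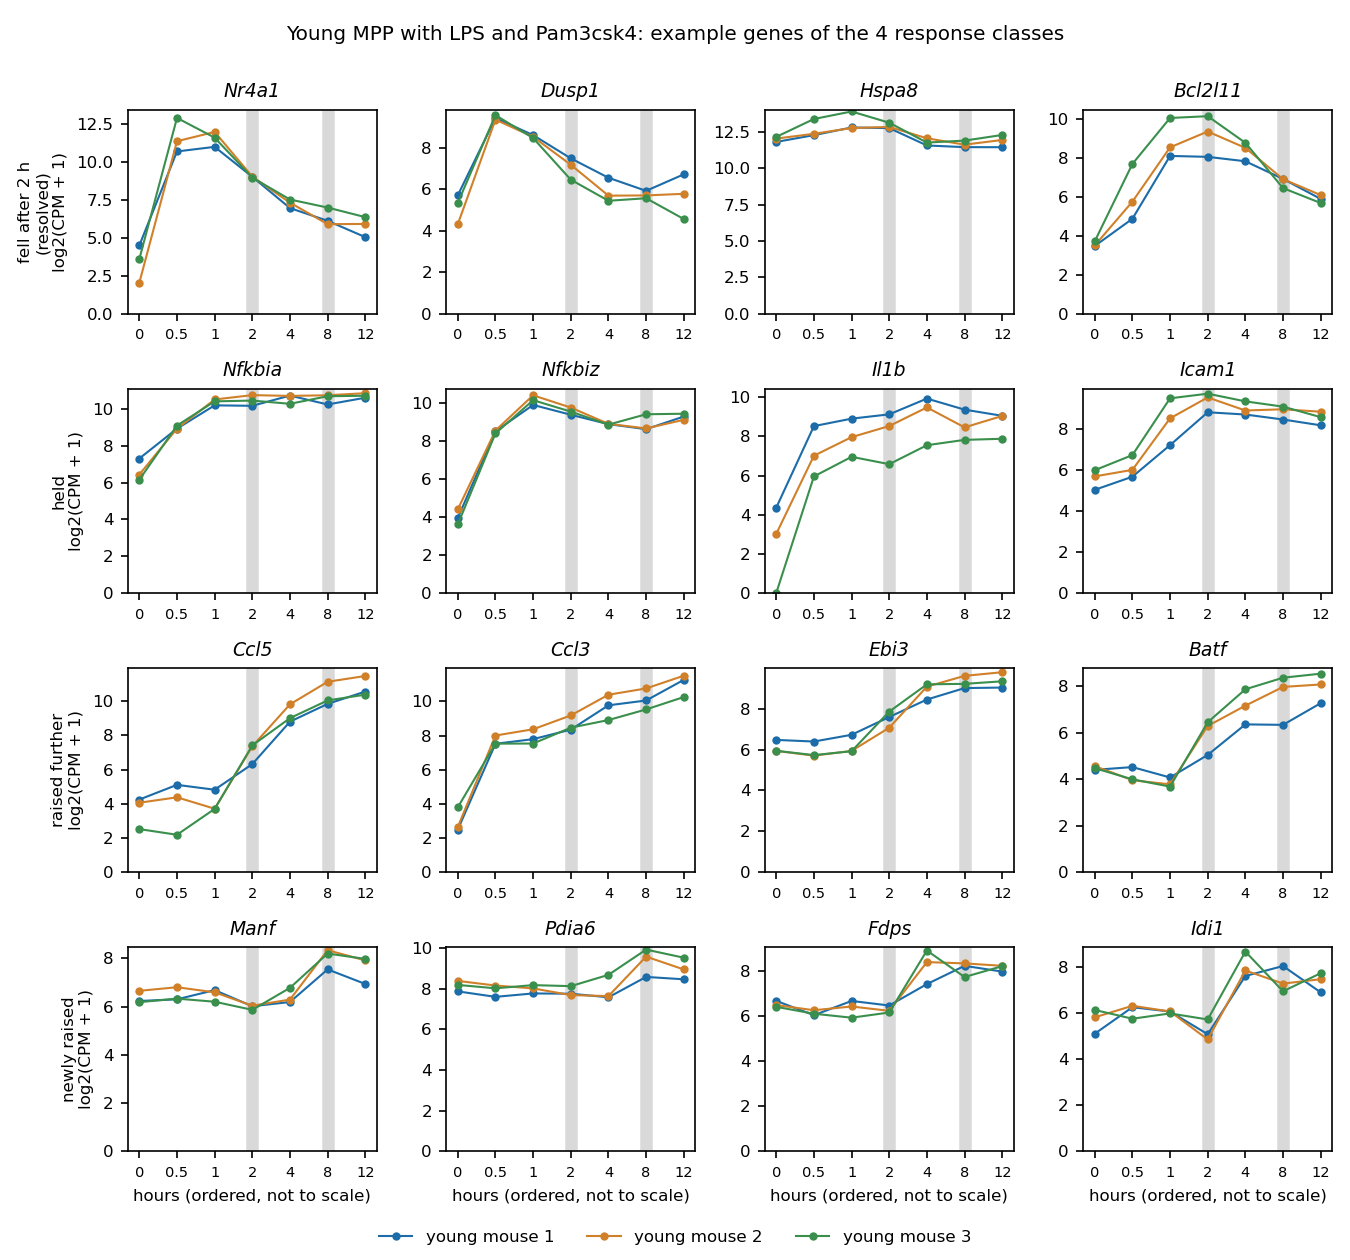
Level of 16 genes in young MPP of mice 1, 2 and 3 (coloured lines) over 0 to 12 h with LPS and Pam3csk4, as log2(CPM + 1); times are spaced evenly and the 2 h and 8 h samples are marked by grey bars. Nr4a1 and Dusp1 peak before 2 h and are lower at 8 h than at 2 h in each mouse, Nfkbia stays near its 2 h level, Ccl5 and Batf climb from 1 h on, and Manf and Pdia6 rise at 8 h while Fdps and Idi1 are already up at 4 h.

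Immediate early genes, which encode short-lived transcription factors and signal inhibitors, showed the lowest median change of the lists described, -1.75 on the log2 scale over 29 tested members, beside -0.04 over all genes. Of these, 9 were lower at 8 h and 0 higher: Fosb, Fosl1, Jun, Junb, Ier2, Nr4a1, Nr4a2, Zfp36 and Dusp1. By class, 7 of the 29 were resolved and 3 held.

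Nr4a1, an orphan nuclear receptor induced by many stimuli, had 68.9, 59.0 and 127 CPM at 8 h and 520, 525 and 501 CPM at 2 h. The 3 mice were almost equal at 2 h and every 8 h value lay below them. Its fitted change was -2.74 ± 0.51 (log2, SE; adjusted p = 0.00422, edgeR), and at 8 h it was still 2.90 log2 units above 0 h, where it had 21.7, 3.13 and 11.2 CPM. The mean over the mice was 4000 CPM at 0.5 h, 3070 CPM at 1 h, 156 CPM at 4 h and 57.8 CPM at 12 h, so 2 h was already on the falling limb. Its relative Nr4a2 had 1, 0 and 2 counts at 8 h, in all 3, against 393 at 2 h. That made it 127-fold lower, with an exact counting interval of 43 to 617, and it was near 0 before exposure as well, with 2 counts at 0 h.

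Dusp1, a phosphatase that switches off MAP kinases, had 60.1, 51.4 and 46.7 CPM at 8 h and 180, 145 and 87.7 CPM at 2 h. All 8 h values lay below all 2 h values (log2 -1.40 ± 0.37, adjusted p = 0.0330, edgeR). Zfp36, which binds AU-rich elements and speeds the decay of cytokine mRNAs, had 63.3, 76.3 and 22.7 CPM at 8 h and 140, 146 and 60.8 CPM at 2 h; it fell in each mouse, although the groups overlapped (log2 -1.19 ± 0.30, adjusted p = 0.0275). Junb, an AP-1 subunit, fell less, by 1.05 ± 0.28 on the log2 scale, and stayed 1.63 log2 units above 0 h. For Fos and Egr1 the changes were -3.09 ± 1.05 and -3.38 ± 1.02, which did not pass (adjusted p = 0.105 and 0.0671), with mouse 1 at 21.5 and 16.4 CPM at 8 h and the other two mice at 3.46 CPM or less. The list of mRNA decay factors and MAP kinase phosphatases, which holds Dusp1 and Zfp36, had 3 of 20 tested members lower and 0 higher. The third was Spry2, an inhibitor of receptor tyrosine kinase signalling, at 1.85, 5.93 and 2.69 CPM at 8 h and 35.3, 46.1 and 27.1 CPM at 2 h.

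Heat shock chaperones of the cytosol and mitochondria were a second list with falls. Of 15 tested members 6 were lower at 8 h and 0 higher, all 15 had a negative fitted change, and the median was -1.5 against -0.04 over all genes. Hspa8, the constitutive Hsp70, had 2800, 3150 and 3820 CPM at 8 h and 6930, 7330 and 8960 CPM at 2 h. The groups did not overlap and the 8 h values were close to those at 0 h, 3590, 4210 and 4560 CPM (8 h minus 2 h, log2 -1.30 ± 0.22, adjusted p = 0.00262). Hsp90ab1, a cytosolic Hsp90, fell by 1.24 ± 0.17 (adjusted p = 0.000755) and Hsp90aa1, its inducible partner, by 1.55 ± 0.27. Hspa1a, the inducible Hsp70, had 273, 13.6 and 32.5 CPM at 8 h and 844, 317 and 890 CPM at 2 h, with mouse 1 the highest at 8 h (log2 -3.24 ± 0.88, adjusted p = 0.0389). Hspa1a has a near-identical neighbour, Hspa1b, so the split of reads between the pair is uncertain. The mitochondrial chaperone Hspd1, also 1 of the 6, was not raised at 2 h and ended 1.06 log2 units below 0 h.

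Cytokine receptor signalling showed falls in Stat3 and Cish. Stat3, which carries signals of the Il6 family, had 182, 213 and 441 CPM at 8 h and 429, 445 and 588 CPM at 2 h, a fall in each mouse with mouse 3 the highest at both times (log2 -0.93 ± 0.21, adjusted p = 0.0143). Cish, a feedback inhibitor of Stat5 signalling, had 16.6, 16.3 and 29.6 CPM at 8 h and 82.4, 94.1 and 102 CPM at 2 h (log2 -2.26 ± 0.41, adjusted p = 0.00392). In the list of SOCS, Pim and JAK-STAT genes these 2 of 26 fell and 2 rose, beside 2.68% and 2.53% of all genes. The risers were the kinase Tyk2 (log2 2.18 ± 0.50) and Csf2ra, the GM-CSF receptor alpha chain (log2 1.21 ± 0.25). Socs3, another feedback inhibitor, was held, at 84.8, 82.3 and 89.5 CPM at 8 h and 89.9, 86.9 and 44.8 CPM at 2 h.

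Bcl2l11, which encodes the death-promoting protein Bim, had 121, 120 and 87.0 CPM at 8 h and 267, 660 and 1140 CPM at 2 h. It differed more between mice at 2 h than at 8 h (log2 -2.39 ± 0.52, adjusted p = 0.0128), and remained 3.67 log2 units above 0 h. Among 24 survival and death genes tested, those that fell included Bcl2l11 and Mcl1, and Bcl2a1a, Casp8 and Casp1 rose. Bcl2a1a, a survival gene that NF-kB switches on in myeloid cells, had 56.4, 87.9 and 96.1 CPM at 8 h and 11.9, 5.24 and 11.3 CPM at 2 h (log2 2.99 ± 0.73, adjusted p = 0.0215). It belongs to a family of near-identical copies, and the share of reads given to this copy is uncertain. Casp8, an initiator caspase, was lower at 2 h than at either other time: it had 120, 169 and 218 CPM at 8 h, 31.9, 55.5 and 109 CPM at 2 h and 118, 141 and 164 CPM at 0 h. The change from 2 h to 8 h passed (log2 1.41 ± 0.28, adjusted p = 0.00687), and that between 0 h and 2 h did not.

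Of 24 genes for G1 cyclins, CDK inhibitors and p53 targets, 4 fell and 0 rose, beside 2.68% and 2.53% of all genes. Cdkn1a, the CDK inhibitor p21, had 73.7, 177 and 67.7 CPM at 8 h and 322, 458 and 240 CPM at 2 h (log2 -1.79 ± 0.50, adjusted p = 0.0440). Trp53, which encodes p53, was lower at 8 h with no overlap between groups (log2 -1.07 ± 0.22): it had 171, 205 and 314 CPM at 8 h and 367, 460 and 539 CPM at 2 h. Ccng1, a p53 target, and Ccnd2, a G1 cyclin, fell by 1.18 ± 0.27 and 1.5 ± 0.30 on the log2 scale. Cd44 and Itgav, adhesion receptors of the activation surface list, were the 2 of 20 tested members that passed, beside 5.21% of all genes. Cd44 had 778, 657 and 487 CPM at 8 h and 730, 1240 and 1750 CPM at 2 h, so mouse 1 did not fall and the groups overlapped (log2 -1.02 ± 0.27, adjusted p = 0.0341). Atf4, the transcription factor of the integrated stress response, fell by 0.81 ± 0.20 on the log2 scale (adjusted p = 0.0264) and was 1.13 above 0 h at 8 h. It was 1 of 2 members of that list of 19 that passed, the other being the serine hydroxymethyltransferase gene Shmt2.

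The largest falls among genes with a mean of at least 10 CPM also included genes with no early rise. C1qb was the single gene of 14 monocyte and macrophage markers that passed as lower, while Emr1, Csf1r and Cx3cr1 passed as higher. The median change of these markers was -0.83. C1qa, C1qc, Fcgr1 and Cd163 were also lower at 8 h in each mouse without passing, at 19.6 CPM or less in all 6 libraries. Emr1, the macrophage marker F4/80, had 542, 202 and 32.0 CPM at 8 h and 68.8, 69.0 and 2.46 CPM at 2 h. C1qb, a complement component made by macrophages, had 0, 0 and 0.244 CPM at 8 h and 40.3, 32.6 and 5.17 CPM at 2 h; with 1 count in all at 8 h it was 338-fold lower, with an exact counting interval of 60.2 to 1.34e+04. Etv5, an Ets transcription factor, had 0, 0.247 and 0.978 CPM at 8 h and 17.1, 18.2 and 30.0 CPM at 2 h, where it was near its 0 h level. The Notch target Hes1 had 0.231, 0 and 1.22 CPM at 8 h against 59.5, 17.1 and 14.8 CPM at 2 h. Errfi1, an inhibitor of the EGF receptor, and Havcr2, which encodes the immune receptor Tim-3, were likewise resolved. Irf4, an interferon regulatory factor, had 0, 2.22 and 9.04 CPM at 8 h and 76.6, 70.9 and 198 CPM at 2 h. Il1r2, the decoy receptor for interleukin 1, had 20.3, 7.16 and 3.42 CPM at 8 h and 173, 117 and 59.8 CPM at 2 h (log2 -3.76 ± 0.48, adjusted p = 0.000400), with mouse 1 the highest and mouse 3 the lowest at both times.

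**Figure D2:**
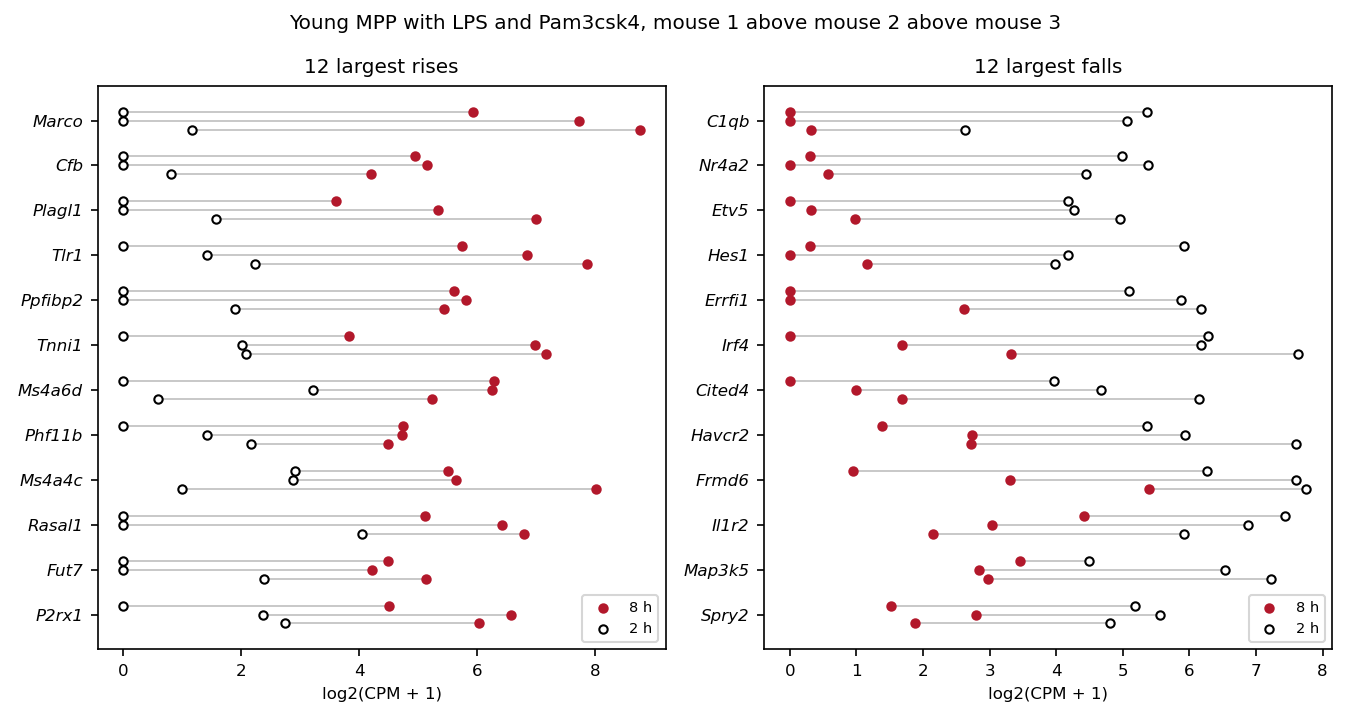
The 12 largest rises (left) and 12 largest falls (right) among called genes averaging 10 CPM or more over the 6 libraries and the same direction in all 3 mice; each line joins the 8 h value (filled) and the 2 h value (open) of 1 mouse as log2(CPM + 1). In mice 1 and 2 Marco, Cfb and Plagl1 are at 0 at 2 h, and in the right panel every 8 h point lies left of its own 2 h point.

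Of 24 tested NF-kB subunits and feedback regulators 0 passed between 8 h and 2 h, beside 5.21% of all genes, so that a count of 0 in a list of this size is near the background. By class 15 of them were held, beside 2.29% of all genes, and the median change was -0.26. Nfkbia, the inhibitor that retains NF-kB in the cytoplasm, had 1210, 1710 and 1650 CPM at 8 h and 1150, 1720 and 1400 CPM at 2 h. Its change was 0.04, with a 95% interval of -0.45 to 0.54, and it was 4.12 log2 units above 0 h. Nfkb2 (interval -0.97 to 0.48) and Relb (-0.64 to 0.85), subunits of the non-canonical branch, likewise showed no passing change. Others lay lower at 8 h without passing. Tnfaip3, the ubiquitin-editing inhibitor A20, had 196, 241 and 291 CPM at 8 h and 336, 530 and 514 CPM at 2 h (log2 -0.97 ± 0.30, adjusted p = 0.0710), and Nfkbiz, an atypical nuclear inhibitor, changed by -0.69 ± 0.21 (adjusted p = 0.0665). A value that misses the threshold does not show that levels were equal, and for these 2 genes the unadjusted 95% intervals, -1.60 to -0.34 and -1.13 to -0.25, lay below 0.

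Promoters of 3 held NF-kB genes are shown because they carry the letters of a kappa-B site, the sequence that NF-kB dimers bind. The letters searched were GGG, any 2 bases and TTTCC on both strands of the 300 bases around each RefSeq start site, from 250 before to 50 after it (build GRCm38.p6). They occurred in 6 of 20 list members with a promoter in the table (30%) and in 512 of 27025 genes in all (1.89%). Only bases before the start site are printed, 5′ to 3′ along the gene's strand, with the match in capitals. The Nfkbia stretch is chr12:55492648-55492716 (minus strand), that of Tnfaip3 chr10:19015411-19015462 (minus strand) and that of Nfkb2 chr19:46304686-46304736 (plus strand). A match describes letters and not binding.
Nfkbia: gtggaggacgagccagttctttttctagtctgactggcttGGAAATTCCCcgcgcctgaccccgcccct
Tnfaip3: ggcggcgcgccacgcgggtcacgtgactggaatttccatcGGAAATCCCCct
Nfkb2: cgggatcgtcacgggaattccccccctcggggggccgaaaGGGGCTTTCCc

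Of 38 tested cytokines and chemokines 11 were held, 5 were raised further, 1 was newly raised and 0 fell by the test, and the others were in none of these classes. The held ones included Tnf, Il1b, Il6, Ccl4, Cxcl2 and Cxcl10. Il1b had 658, 351 and 225 CPM at 8 h and 557, 368 and 94.6 CPM at 2 h, in the same order of mice as the granule transcripts (95% interval of the change -0.44 to 1.31). Tnf had 415, 299 and 62.3 CPM at 8 h and 285, 302 and 120 CPM at 2 h. Cxcl2, a neutrophil chemokine, had 339, 248 and 11.0 CPM at 8 h and 137, 230 and 79.8 CPM at 2 h: it was higher in 2 mice and lower in mouse 3. Il6 was low at both times, 20.1, 37.8 and 8.07 CPM at 8 h and 5.76, 11.0 and 3.69 CPM at 2 h, and had 0 counts at 0 h. Cd14, the LPS co-receptor, was held at 576, 438 and 68.2 CPM at 8 h and 529, 466 and 53.2 CPM at 2 h. The part of cells with granule or monocyte transcripts in the levels of Il1b, Tnf, Cxcl2 and Cd14 was not tested.

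The 6 held genes with the highest levels were Ftl1, Ngp, Sqstm1, Camp, Ubb and Chi3l3. Of these Ngp, Camp and Chi3l3 are transcripts of neutrophils or macrophages, with 20000, 7800 and 41.3 CPM of Ngp at 8 h and 16100, 6380 and 37.2 CPM at 2 h. Sqstm1, the autophagy receptor p62, had 4690, 4890 and 1490 CPM at 8 h and 2580, 3800 and 4020 CPM at 2 h, and the mice disagreed in direction. Ftl1, ferritin light chain, had 25000, 17900 and 3690 CPM at 8 h and 6950, 6930 and 2930 CPM at 2 h; it was higher in each mouse, with mice 1 and 2 far above mouse 3, and did not pass (log2 1.22 ± 0.37, adjusted p = 0.0678).

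Of the cytokine list 7 genes were higher at 8 h, namely Ccl3, Ccl5, Ccl9, Ccl17, Ccl22, Cxcl16 and Ebi3, and 5 of them were raised further after an early rise. Ccl5, a chemokine for T cells and monocytes, had 921, 2260 and 1060 CPM at 8 h and 79.1, 164 and 170 CPM at 2 h. Every 8 h value was above every 2 h value (log2 3.15 ± 0.53, adjusted p = 0.00257), and the mean rose through 622 CPM at 4 h to 1910 CPM at 12 h. Ccl3, which attracts monocytes, had 1060, 1730 and 737 CPM at 8 h and 324, 577 and 351 CPM at 2 h (log2 1.41 ± 0.36, adjusted p = 0.0275). Ebi3, a subunit of interleukins 27 and 35, had 517, 783 and 597 CPM at 8 h and 193, 134 and 232 CPM at 2 h, also without overlap (log2 1.70 ± 0.29, adjusted p = 0.00261). Ccl22, a chemokine of activated macrophages and dendritic cells, had 38.6, 294 and 167 CPM at 8 h and 0, 19.6 and 14 CPM at 2 h. It had 0 counts at 0 h, so that at 8 h it was at least 1120-fold higher than at 0 h with the floor set at 3 counts over the group.

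Other genes raised further encode parts of the secretory pathway, the oxidase and a transcription factor. Batf, an AP-1 family factor, had 79.7, 249 and 328 CPM at 8 h and 31.9, 77.0 and 86.2 CPM at 2 h (log2 1.64 ± 0.38, adjusted p = 0.0161). Surf4, a cargo receptor for export from the ER, had 631, 687 and 789 CPM at 8 h and 271, 325 and 273 CPM at 2 h, with little spread in either group (log2 1.22 ± 0.16, adjusted p = 0.000614). Serp1, which protects membrane proteins in the ER under stress, rose by 0.99 ± 0.23 on the log2 scale. Aldoa, a glycolytic aldolase, had 2920, 2490 and 1130 CPM at 8 h and 1070, 950 and 959 CPM at 2 h. Glycolysis as a list did not share this: 2 of 26 members were higher (Aldoa and Pgam1), 2 lower (Tpi1 and Ldha), and the median was -0.04.

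Chaperones and folding enzymes of the ER formed the list with the most calls upward. Of 24 tested members 14 were higher at 8 h and 0 lower, beside 2.53% of all genes, and 23 had a positive fitted change, with a median of 1.04. The list's median at 2 h against 0 h was 0.19. By class, 10 members were newly raised, 1 raised further and 4 held. Manf, a secreted protein of ER stress, had 186, 324 and 294 CPM at 8 h and 63.8, 64.8 and 57.4 CPM at 2 h. The 2 h values were tight and all 8 h values were above them (log2 2.02 ± 0.24, adjusted p = 0.000273). The mean was 86.1 CPM at 4 h and 205 CPM at 12 h, so most of the rise came after 4 h. Pdia4 and Pdia6, protein disulphide isomerases, had 168, 572 and 588 CPM and 384, 769 and 978 CPM at 8 h, against 90.9, 85.5 and 111 CPM and 216, 206 and 280 CPM at 2 h, with mouse 1 the lowest at 8 h in both (log2 2.04 ± 0.32 and 1.47 ± 0.21). Hyou1, a large ER chaperone of the Hsp70 family, rose by 1.87 ± 0.33 (adjusted p = 0.00346), and P4hb, another disulphide isomerase, by 0.71 ± 0.20 (adjusted p = 0.0438). Hspa5 (BiP), the central ER chaperone, was up early and held: 1160, 2240 and 2560 CPM at 8 h, 1350, 1540 and 1340 CPM at 2 h and 646, 698 and 642 CPM at 0 h. Ddit3, the death-associated factor of ER stress, had 54.1, 29.6 and 21.5 CPM at 8 h and 54.0, 49.1 and 22.4 CPM at 2 h and did not pass at either time against 0 h. Xbp1, a transcription factor for these genes that splicing of its own mRNA activates, was among the 14.

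The ER stress element, which the factors Atf6 and Xbp1 are known to use together with NF-Y, is spelled CCAAT, any 9 bases and CCACG. It was found on either strand within the same 300 bases in 7 of 20 list members with a promoter in the table (35%), namely Calr, Canx, Creld2, Dnajc3, Hsp90b1, Hspa5 and Pdia6, and in 37 of 27025 genes (0.137%). Of the 7 list members with it, Creld2, Dnajc3, Hsp90b1 and Pdia6 rose between 2 h and 8 h, and Calr, Canx and Hspa5 did not pass. The element is shown in 3 members that rose, again with bases before the start site alone, 5′ to 3′ along the gene's strand, the match in capitals and RefSeq build GRCm38.p6. Pdia6 is at chr12:17266451-17266549, Dnajc3 at chr14:118937787-118937885 and Creld2 at chr15:88819480-88819578, all on the plus strand. In Creld2 the element lies in the reverse direction.
Pdia6: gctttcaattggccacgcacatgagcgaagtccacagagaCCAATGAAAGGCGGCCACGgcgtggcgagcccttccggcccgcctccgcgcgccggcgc
Dnajc3: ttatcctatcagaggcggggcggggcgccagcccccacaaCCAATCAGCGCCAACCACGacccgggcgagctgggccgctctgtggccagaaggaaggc
Creld2: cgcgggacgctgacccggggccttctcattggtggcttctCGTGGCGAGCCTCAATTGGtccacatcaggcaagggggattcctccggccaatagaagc

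Newly raised genes were also found in cholesterol and fatty acid synthesis. Of 28 tested members 8 rose and 0 fell, and all 8 were newly raised. They included Hmgcs1, Idi1, Fdps, Fdft1, Sc4mol and Nsdhl, enzymes from hydroxymethylglutaryl-CoA to sterols, and Insig1, a sterol-responsive inhibitor of the pathway. Fdps, farnesyl diphosphate synthase, had 295, 318 and 209 CPM at 8 h and 86.6, 73.4 and 69.7 CPM at 2 h (log2 1.79 ± 0.28, adjusted p = 0.00148). Idi1 had 262, 154 and 122 CPM at 8 h and 32.8, 27.9 and 51.7 CPM at 2 h (log2 2.29 ± 0.37, adjusted p = 0.00166). Both were without overlap between groups. Unlike Manf they were high by 4 h, with means of 324 and 276 CPM, and at 12 h they were at 278 and 168 CPM. The median of the list, 0.80, was lower than that of the 8 genes, and its lowest member changed by -1.75.

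Late inflammatory effectors, which include oxidase subunits, acute phase proteins and scavenger receptors, had 9 of 29 tested members higher and 0 lower, with a median of 1.14. The 9 were Saa3, Marco, Hp, Mmp9, Cyba, Ncf1, Ncf4, Slpi and C3. Marco, a scavenger receptor for bacteria on macrophages, had 59.9, 210 and 430 CPM at 8 h and 0, 0 and 1.23 CPM at 2 h, the largest rise among genes with a mean of at least 10 CPM. Ncf1, a cytosolic oxidase subunit, had 1990, 1860 and 1370 CPM at 8 h and 1040, 646 and 560 CPM at 2 h without overlap (log2 1.21 ± 0.30, adjusted p = 0.0244). Cyba, the membrane subunit p22phox, had 400, 489 and 353 CPM at 8 h and 309, 177 and 90.6 CPM at 2 h. Ncf4 had 386, 350 and 131 CPM at 8 h and 227, 148 and 23.4 CPM at 2 h, higher at 8 h in each mouse though the groups overlapped. Slpi, a protease inhibitor, had 951, 690 and 25.2 CPM at 8 h and 222, 122 and 6.90 CPM at 2 h. Hp, haptoglobin, had 2770, 1600 and 106 CPM at 8 h and 1470, 939 and 28.3 CPM at 2 h.

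Of 6 late granule transcripts 2 rose as well. S100a8 had 18200, 11100 and 25.7 CPM at 8 h and 10400, 5040 and 12.6 CPM at 2 h (log2 0.95 ± 0.16, adjusted p = 0.00209), and Ltf, lactoferrin, rose by 0.64 ± 0.17 (adjusted p = 0.0332). The 4 other granule markers did not pass. Levels of Hp and Slpi followed the granule transcripts across mice, while Marco was highest in mouse 3. In mouse 3, where granule transcripts were 0.0201% of counts at 8 h, Ncf4, Cyba and the GTPase gene Rac2 (1030 CPM at 8 h, 235 CPM at 2 h) were also higher at 8 h. The part of granule transcripts in these rises was not tested. Tlr1, the partner of Tlr2 in binding Pam3csk4, had 52.5, 114 and 232 CPM at 8 h and 0, 1.66 and 3.69 CPM at 2 h (log2 6.16 ± 1.57, adjusted p = 0.0274, edgeR). It was the single member of 27 TLR receptors and adaptors that passed, beside 5.21% of all genes, a share near the background.

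**Figure D3:**
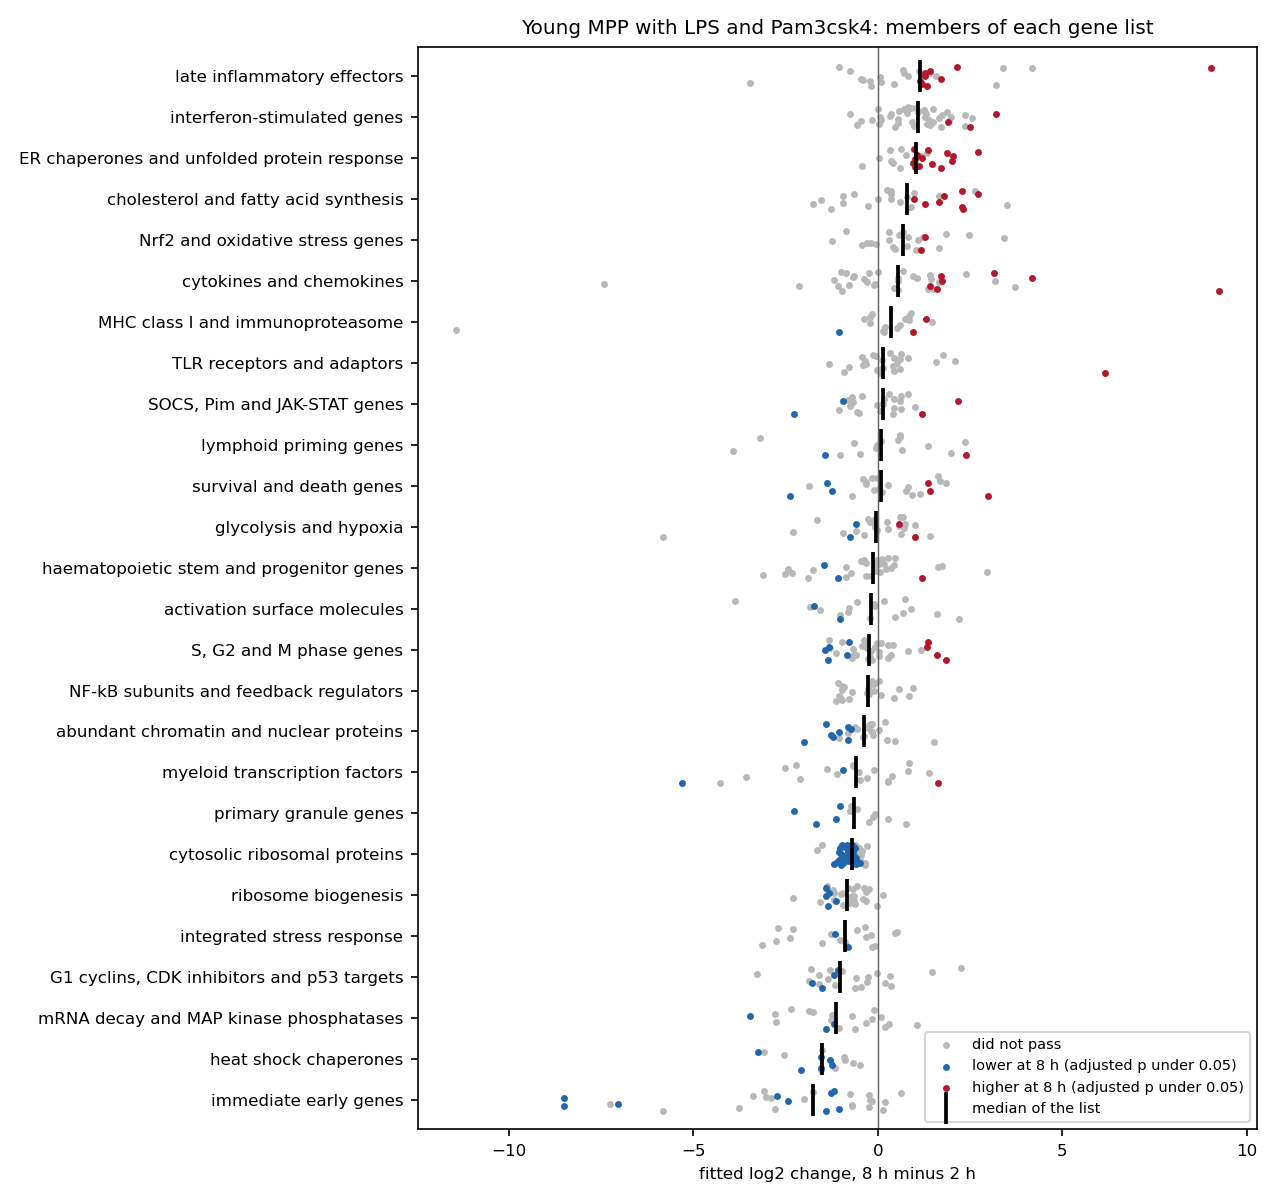
Fitted log2 change, 8 h minus 2 h, of every tested member of 26 gene lists in young MPP with LPS and Pam3csk4, ordered by the list's median (black bar); red and blue points passed at adjusted p under 0.05 as higher or lower at 8 h. ER chaperones hold 14 red points and 0 blue, heat shock chaperones lie wholly left of 0, and 47 of 78 cytosolic ribosomal proteins are blue.

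A class added after values were seen held 60 genes. They passed as lower at 2 h than at 0 h and as higher at 8 h than at 2 h. Both comparisons use the same 3 libraries at 2 h, so low values there by chance favour both calls. Of the 311 genes that rose, 165 did not pass against 0 h at 8 h. Of 45 interferon-stimulated genes 1, Dhx58, was in the class of 60, and 3 passed as higher at 8 h than at 2 h, Ifit2, Dhx58 and Iigp1. The median fitted change of the list was 1.10, but the mice differed, with medians of 0.03, 0.93 and 1.93 on the log2(CPM + 1) scale, so that mouse 1 showed almost no change. Dhx58, a sensor of viral RNA, had 39.5, 25.9 and 130 CPM at 8 h, 8.84, 8.00 and 10.1 CPM at 2 h and 54.2, 52.2 and 52.8 CPM at 0 h. Ifit2 had 50.2, 37.8 and 50.8 CPM at 8 h and 0, 8.00 and 6.65 CPM at 2 h. Irf7, the master regulator of interferon genes, had 53.9, 51.9 and 120 CPM at 8 h and 41.3, 28.1 and 24.9 CPM at 2 h, which did not pass (log2 1.10 ± 0.55). Tap2, the peptide transporter of antigen presentation, had 229, 174 and 331 CPM at 8 h, 83.2, 85.8 and 118 CPM at 2 h and 216, 301 and 318 CPM at 0 h. It and the proteasome activator Psme2 were the 2 of 18 MHC class I genes that rose, beside 2.53% of all genes. The class I gene H2-Q4, one of a family of near-identical copies, fell.

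Falls were also found in lists of nuclear proteins, translation and DNA replication. Of 26 abundant chromatin and nuclear proteins 8 fell and 0 rose, and of 32 ribosome biogenesis genes 5 fell and 0 rose. Npm1, nucleophosmin, had 334, 558 and 820 CPM at 8 h and 1210, 1710 and 1290 CPM at 2 h, with mouse 1 the lowest at 8 h (log2 -1.41 ± 0.17, adjusted p = 0.000273). Ncl, nucleolin, had 205, 318 and 594 CPM at 8 h and 681, 860 and 950 CPM at 2 h (log2 -1.32 ± 0.16, adjusted p = 0.000273). Of 78 cytosolic ribosomal protein genes, a list added after values were seen, 47 fell and 0 rose, with changes from -1.65 to -0.30 and a median of -0.69. Many ribosomal protein genes have processed pseudogenes that share their reads. Pcna, the polymerase clamp of DNA replication, fell, with 82.1, 75.1 and 64.5 CPM at 8 h and 233, 241 and 119 CPM at 2 h. Ccnb1, a mitotic cyclin, rose and had 210, 133 and 154 CPM at 8 h, 91.8, 36.4 and 20.2 CPM at 2 h and 198, 153 and 110 CPM at 0 h (8 h minus 2 h, log2 1.84 ± 0.35, adjusted p = 0.00550). In the list of 36 S, G2 and M phase genes Ccnb1, Plk1, Cdc20 and Ube2c rose and Mcm5, Mcm7, Pcna, Dut and Cdt1 fell, with a median of -0.24. Other mitotic members did not pass, with changes of -0.16 for Aurka, -0.31 for Bub1 and 0.09 for Top2a.

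Of 34 haematopoietic stem and progenitor genes 1 rose and 2 fell, beside 2.53% and 2.68% of all genes, a share near the background. Kit, the receptor for stem cell factor and a sort marker, had 386, 806 and 1930 CPM at 8 h and 232, 323 and 635 CPM at 2 h, higher at 8 h in each mouse (log2 1.19 ± 0.22, adjusted p = 0.00407). Gata2, a stem and progenitor transcription factor, had 17.8, 25.9 and 45.2 CPM at 8 h and 53.6, 73.1 and 101 CPM at 2 h, and Cd34 fell by 1.07 ± 0.27 on the log2 scale. Flt3, the lymphoid-priming receptor, had 86.0, 216 and 660 CPM at 8 h and 176, 278 and 261 CPM at 2 h, and its direction differed between mice. Primary granule genes of immature myeloid cells fell in 4 of 12 tested members and rose in 0. Mpo, myeloperoxidase, had 1120, 554 and 365 CPM at 8 h and 3800, 2210 and 850 CPM at 2 h (log2 -1.68 ± 0.30, adjusted p = 0.00375), opposite in direction to the late granule transcripts S100a8 and Ltf. Among the 17 lymphoid priming genes Cd52, a surface glycoprotein, rose, with 466, 701 and 579 CPM at 8 h and 297, 141 and 36.7 CPM at 2 h. Of 22 myeloid transcription factors Batf rose and Irf4 and Stat3 fell, while Cebpb was at 3.65 CPM or less in all 6 libraries.

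The same interval without ligand was measured in MPP of young mouse 4 and old mouse 4, 1 mouse of each age. There 131 of 13020 genes (1.01%) were higher at 8 h than at 2 h and 488 (3.75%) were lower by edgeR, in all 619 (4.75%). Of the 311 genes that rose with ligand 25 also rose without it and 18 fell, and of the 330 that fell 64 also fell and 0 rose. The test of the difference between the changes, with minus without ligand, called 274 genes (2.10%), 231 of them higher (1.77%) and 43 lower (0.330%). It called 64 of the 311 risers as higher and 14 of the 330 fallers as lower. The count of 231 higher fell to 9 without mouse 2 and to 45 without mouse 3, and the count of 43 lower to 0 and 4. Without the old mouse cultured in medium alone it was 519 higher and 65 lower. Ligand, mouse and culture cannot be told apart here, since no mouse had both courses. Libraries without ligand were also less deep. In young mouse 4 and old mouse 4 they held 1882081 and 1883820 counts at 8 h and 2591395 and 2409371 at 2 h. The lowest of the 6 compared libraries held 3623808, so a level of 0 without ligand rests on fewer counts.

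Of the 25 gene lists tested here, ER chaperones had the most members that passed: 11 of 24 as higher with ligand and 0 as lower. Manf had 12.2 and 65.8 CPM at 8 h and 74.9 and 73.9 CPM at 2 h in young mouse 4 and old mouse 4, a fitted change of -1.25, so the difference from the change with ligand was 3.27 ± 0.53 (adjusted p = 0.00245). For Pdia6 the difference was 2.05 ± 0.32 (adjusted p = 0.00165) and for Hspa5 1.30 ± 0.28 (adjusted p = 0.0154). Of 45 interferon-stimulated genes 10 passed as higher with ligand and 0 as lower. The fitted median of this list was 1.10 with ligand and -2.62 without. The 3 members that passed between 8 h and 2 h with ligand, Ifit2, Dhx58 and Iigp1, were not among the 10. Irf7 was at 0 in both cultures without ligand at 8 h, and at 21.6 and 31.1 CPM at 2 h. Of 36 S, G2 and M phase genes 8 passed as higher with ligand and 0 as lower, namely Top2a, Ccnb2, Plk1, Cdc20, Birc5, Rrm1, Tpx2 and Ube2c. The fitted median of this list was -0.24 with ligand and -1.28 without. Of the 8, Plk1, Cdc20 and Ube2c also passed as higher at 8 h than at 2 h with ligand. Top2a, Ccnb2, Birc5, Rrm1 and Tpx2 did not, with Rrm1 at -0.38 and Top2a at 0.09. Of 15 heat shock chaperones 2, Hspa8 and Hsp90ab1, passed as lower with ligand, by -1.5 ± 0.33 and -1.46 ± 0.29: Hspa8 had 13600 and 13900 CPM at 8 h and 10100 and 14900 CPM at 2 h without ligand. The median change of the heat shock list without ligand was 0.03 in young mouse 4 and -1.64 in old mouse 4 on the log2(CPM + 1) scale, beside -1.37, -1.28 and -1.33 in young mice 1, 2 and 3 with ligand. Among 29 immediate early genes 1, Fosl1, passed as lower with ligand and 2, Myc and Csrnp1, as higher. For the resolved genes Dusp1, Zfp36, Nr4a1 and Cish the differences were -0.27, -0.07, 1.17 and 0.1, which did not pass. The median change of the immediate early list without ligand was -0.4 in young mouse 4 and -0.82 in old mouse 4. With ligand it was -1.21, -1.08 and -1.38 on the same log2(CPM + 1) scale. Of the 28 cholesterol genes 1 passed, Dhcr7, and Idi1 rose without ligand too, to 89.8 and 91.8 CPM at 8 h against 32.8 and 23.7 CPM at 2 h. Ncl, Npm1, Pcna and Mpo also fell without ligand, by 1.54, 1.00, 1.21 and 2.96 on the log2 scale, and none of these 4 passed the test of the difference.

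**Figure D4:**
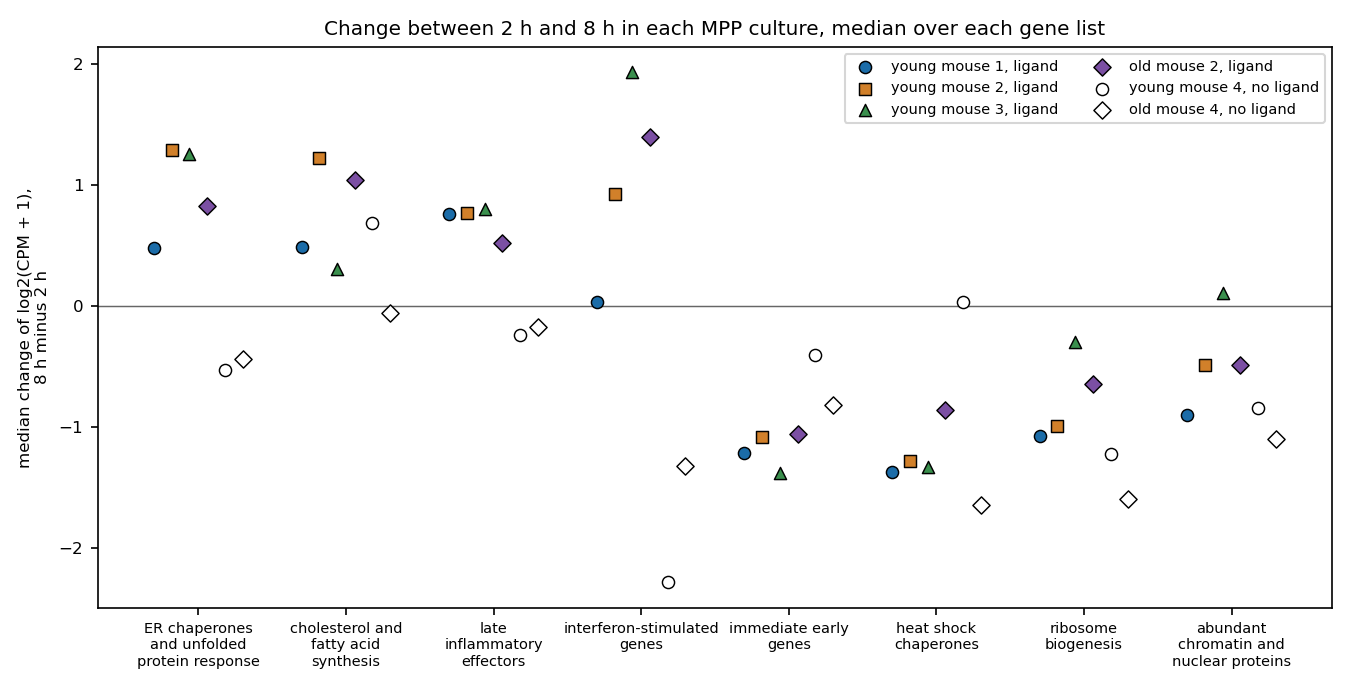
Median over each of 8 gene lists of the change of log2(CPM + 1), 8 h minus 2 h, in MPP of each mouse with ligand (filled; young mice 1, 2 and 3 and old mouse 2) and without ligand (open; young mouse 4 and old mouse 4). ER chaperones are at 0.48 to 1.29 with ligand and at -0.53 and -0.44 without, while for ribosome biogenesis all 6 cultures lie below 0.

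Old mouse 2, cultured with ligand and outside the fit, moved the same way in most called genes: 303 of the 311 that rose (97.4%) and 319 of the 330 that fell (96.7%), against 53.9% and 43.4% of all genes that were higher or lower in that mouse. Manf had 223 CPM at 8 h and 77.6 CPM at 2 h there, Ccl5 2000 and 381 CPM, and Nr4a1 57.6 and 616 CPM. The mouse is a single animal, so these values carry no test.

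The change between 2 h and 8 h was also compared with that in ST and LT of the same 3 mice. Of 13678 genes, 0 passed as different from ST (0%) and 0 as different from LT (0%) by edgeR, with 554 and 867 genes at an unadjusted p under 0.05. DESeq2 called 105 genes higher and 49 lower against ST, and 199 and 132 against LT. Without mouse 3 edgeR called 40 higher and 14 lower against LT, and without mouse 1 it called 1 higher. In the fit of all 63 libraries 11 genes were higher at 8 h (0.0804%) and 17 lower (0.124%) in ST, in all 0.205%, and 13 were higher (0.0950%) and 24 lower (0.175%) in LT, in all 0.271%. A count of 0 does not show that the 3 cell types changed alike, and the changes are given side by side. Manf changed by 2.30 ± 0.52 in ST and 0.98 ± 0.50 in LT, Nr4a1 by -2.93 ± 0.65 and -2.79 ± 0.65, Hspa8 by -1.23 ± 0.25 and -0.96 ± 0.24, and Fdps by 2.35 ± 0.44 and 1.83 ± 0.44. Ebi3, which rose in MPP, changed by 0.20 ± 0.37 in ST and -0.84 ± 0.37 in LT, and Surf4 by 0.86 ± 0.24 and 0.28 ± 0.24.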

How the data were processed

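Per the submitters' processing notes, the deposited values are RSEM expected counts on genome build mm9, with no version given. The authors' table holds 23366 gene symbols for 127 libraries, is not scaled to depth, and 89.5% of its expected counts are whole numbers. RSEM divides reads that match several genes, so near-identical copies share counts. Date and number of repeats in the column names tie columns to mice, and each of young mice 1, 2 and 3 has its own date, so that mouse and batch cannot be told apart and the block covers both. The 20 columns of old mouse 2 that could not be told apart by sample were not used.

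Technical repeats were summed and rounded to 99 libraries, and 0 of those mapped held fewer than 1000 counts. The model was edgeR 4.0.16 under R 4.3.3 (TMM, filterByExpr, quasi-likelihood F test, 2-sided, mouse as block) over the 21 libraries of stimulated young MPP at 7 times, which held 2420912 to 11636725 counts. p-values were adjusted by Benjamini-Hochberg over all genes tested at 0.05. In the main fit they rest on the spread left after mouse and time were fitted. It was pooled over the 7 times of 3 mice, with 12 residual degrees of freedom. Differences from ST and LT were fitted over 63 libraries, and those with minus without ligand over 29. Same-numbered libraries are the same mouse by the labels: deviations of 8 h and 2 h correlated at 0.30, 0.09 and 0.52 in mice 1, 2 and 3 and at -0.38 to 0.05 between mice. Levels are CPM, and changes are fitted log2 values ± SE, which depend on the prior count where a group is near 0. Intervals of single counts cover counting error only.

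Members, the 25 gene lists and the rule for named genes were chosen with earlier results of these data known. Named genes are the 12 largest rises and 12 largest falls, the 6 highest genes of each class, 4 members of each list with the smallest p-values, and a fixed set. Ribosomal proteins and the class that dipped at 2 h were added after values were seen. The other settings tried were limma 3.58.1 voom with sample quality weights, DESeq2 1.42.0, other scaling and filters, no block, other sets of libraries and leaving out each mouse. Bias-adjusted deviances and leaving out each culture without ligand were added after seeing the data. The fits were tested on simulated data in which 200 genes were changed. These were drawn only from genes above a minimum mean fitted count at 8 h, in a single simulation per fit. The rates that follow therefore do not cover genes near 0. The main fit found 2.99%, 27.3% and 56.1% of changes of 1, 2 and 3 log2 units, with 4 of 61 calls false. With bias-adjusted deviances 21 of 90 calls were false. For changes of the same sizes the fit of the difference from ST found 0%, 2.99% and 1.52%. That of with minus without ligand found 0%, 8.96% and 21.2%. Promoter sequences are from RefSeq, build GRCm38.p6. Plots come from matplotlib 3.10.9 under Python 3.11.15. Some called genes of the lists are not reported by name here.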

Additional observations from a re-analysis of the deposited data

Results flagged for a closer look

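In 27 genes named in the report the change between 2 h and 8 h with ligand (young mice 1, 2 and 3) differed from that without ligand (young mouse 4 and old mouse 4) by the test of the difference itself (edgeR, Benjamini-Hochberg adjusted p under 0.05 over 13020 genes). The differences are log2 changes with minus without ligand. No mouse had both courses, so ligand and mouse cannot be told apart, and no group has the number of samples that a check for single deviating samples needs.

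Among genes for folding and export of secreted proteins the differences were 3.27 for Manf, 2.05 for Pdia6, 3.45 for Pdia4, 1.30 for Hspa5 and 1.37 for Surf4. Part of each came from a fall without ligand: Hspa5 changed by 0.36 with ligand and -0.93 without, and Surf4 by 1.22 and -0.15. Among interferon and antigen presentation genes the differences were 10.92 for Irf7, 3.87 for Ly6e, 1.94 for Tap2 and 2.92 for Psme2. Among inflammatory genes they were 3.84 for Ccl5, 4.6 for Il1b, 2.59 for Cd14 and 2.96 for Birc3, an inhibitor of apoptosis. Il1b, Cd14 and Birc3 were held with ligand. In the cultures without ligand Birc3 had 17.5 and 10.6 CPM at 8 h and 66.4 and 55.2 CPM at 2 h. Myc, which had fallen by 2 h with ligand, differed by 1.79.

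Transcripts of granules and phagocytes differed by 1.16 for S100a8, 1.68 for Ltf, 2.74 for Hp, 1.85 for Ncf4, 1.65 for the GTPase gene Rac2 and 3.01 for Cd52. Of the largest rises, differences were 10.78 for Ppfibp2, 9.71 for Ms4a4c and 13.66 for P2rx1. Those 3 genes and Irf7 were at 1.06 CPM or less in both cultures without ligand at 8 h, so the sizes of their differences depend on the prior count. The libraries of these cultures were also less deep than the 8 h and 2 h libraries with ligand. Lower with ligand were Spry2 at -3.80, Hspa8 at -1.50, Hsp90ab1 at -1.46 and Atf4 at -1.43.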

How the results depend on the processing

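Each of the 641 called genes that was tested kept its direction with DESeq2, voom, other size factors and filters, no block, the 6 compared libraries and on leaving out each mouse. Since the genes were called from these same libraries, kept direction is no independent check. Their number depended on the fit and on mouse 2. For 8 h against 2 h (311 higher, 330 lower) DESeq2 called 627 and 716, bias-adjusted deviances (added after seeing the data) 512 and 540, no replicate block 52 and 34, the 63 libraries of LT, ST and MPP 5 and 16, and the 6 compared libraries 0 and 0. Leaving out each mouse gave 0 to 340 higher and 0 to 348 lower.

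The response classes (118 resolved, 282 held, 20 raised further, 126 newly raised) numbered 232, 393, 32 and 210 with DESeq2, and 238, 403, 41 and 240 with bias-adjusted deviances. Without the replicate block they were 16, 141, 2 and 20, and over 63 libraries 2, 51, 1 and 3. Over the 9 libraries at 0, 2 and 8 h they were 68, 208, 7 and 61, and voom raised 33 further. Leaving out each mouse gave 0 to 154 resolved, 61 to 320 held, 0 to 23 raised further and 0 to 141 newly raised.

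The difference from ST, 0 in either direction, was 105 higher and 49 lower with DESeq2, and 0 to 0 on leaving out each mouse. The difference from LT was 199 and 132 with DESeq2, and 0 to 40 higher and 0 to 14 lower on leaving out each mouse. With minus without ligand (231 higher, 43 lower) gave 626 and 261 with DESeq2, 76 and 5 without the replicate block, and 519 and 65 without the old mouse cultured without ligand (added after seeing the data). Without the young mouse cultured without ligand it gave 158 and 39, and leaving out each mouse gave 9 to 253 higher and 0 to 63 lower.

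Other scaling and filters kept all counts within 1.5 times. Of 157 named genes 0 reversed among those called in the main fit or in the alternative. The direction of named genes called in neither was not compared. Without mouse 2, with the 6 libraries alone and without the block, 109, 109 and 84 lost their call. Under the same alternatives the medians of the lists kept their sign, except those of SOCS, Pim and JAK-STAT, survival, progenitor, lymphoid and glycolysis genes. The cause of these shifts was not tested, apart from the smaller number of libraries where mice or times were left out. Depth limited genes at a few counts, such as Nr4a2 and C1qb at 8 h.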

Other observations

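Both genes of the Nrf2 and oxidative stress list that rose were enzymes of the pentose phosphate pathway. Of 23 Nrf2 and oxidative stress genes 2 rose between 2 h and 8 h and 0 fell, beside 2.53% and 2.68% of all genes. The list's median was 0.69 against -0.04 over all genes. Medians by mouse were 1.20, 0.83 and -0.06 on the log2(CPM + 1) scale, and redox defence genes such as Prdx1 and Nqo1 did not pass. G6pdx, glucose-6-phosphate dehydrogenase, had 680, 444 and 111 CPM at 8 h and 250, 156 and 71.7 CPM at 2 h (log2 1.18 ± 0.22, adjusted p = 0.00436, edgeR). Pgd, the next enzyme of the pathway, had 1930, 1140 and 188 CPM at 8 h and 619, 349 and 136 CPM at 2 h (log2 1.28 ± 0.30, adjusted p = 0.0174), and Taldo1, transaldolase, changed by 1.08 ± 0.31 without passing (adjusted p = 0.0504). In each of these genes mouse 1 was the highest and mouse 3 the lowest at 8 h, in the order of the granule transcripts, and their part in the rise was not tested. Pgd also rose without ligand, by 1.46 on the log2 scale, and the median of the list without ligand was 1.39.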
